A study of Mus musculus with 12 samples.

Results

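The genes described here encode Aurora kinases and proteins linked to them, 9 of the 55450 genes in the count table. The linked proteins activate or anchor the kinases during cell division, apart from a target kinase (*Plk1*) and a protein named for its interaction with Aurora A (*Aurkaip1*). They are *Aurka*, *Aurkb*, *Aurkaip1*, *Tpx2*, *Bora*, *Plk1*, *Incenp*, *Birc5* and *Cdca8*, matched by mouse symbol to Ensembl gene identifiers. The set was chosen by name, after *Aurka* had been seen in these same libraries to be higher at 7 wks than at 2 wks while other cell cycle genes were lower. The change from 2 to 7 wks is therefore given below as a description, without a test. Changes from E18.5 were tested, although each of those comparisons shares its later libraries with the contrast that led to the choice. The change from E18.5 to 7 wks also contains the interval that led to the choice. Its p-values for these 9 genes are therefore not independent of the choice, and no support is drawn from them.

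RNA was sequenced from the tibialis anterior (TA), a fast muscle of the lower leg, of wild-type (WT) mice of the genetic background labelled 129Pas, which the study's methods name 129SvPas. The mice were taken before birth at E18.5 (E, embryonic day), at 2 wks and at 7 wks, with 4 mice at each age and no treatment, and a library was made from each mouse, 12 in all. Total counts were 63018968 to 123449246 per library. All 9 genes passed the filter on low counts, and the lowest count of any of them in any library was 14. Levels are in counts per 1000000 counts of the library (CPM), with library totals adjusted by the TMM method, and are given as mean ± SD.

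Aurora kinases are serine/threonine kinases that order the steps of mitosis. Aurora A (*Aurka*) works at centrosomes and spindle poles, where TPX2 switches it on, and together with Bora it activates Polo-like kinase 1 (*Plk1*) at mitotic entry. Aurora B (*Aurkb*) is the catalytic subunit of the chromosomal passenger complex, in which INCENP is the scaffold, and survivin (*Birc5*) and borealin (*Cdca8*) bring the complex to chromosomes. Muscle fibres do not divide, and late fetal and young postnatal muscle gains nuclei by fusion of dividing myoblasts, so transcripts of this kind are known in growing muscle as a sign of dividing cells.

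**Figure D1:**
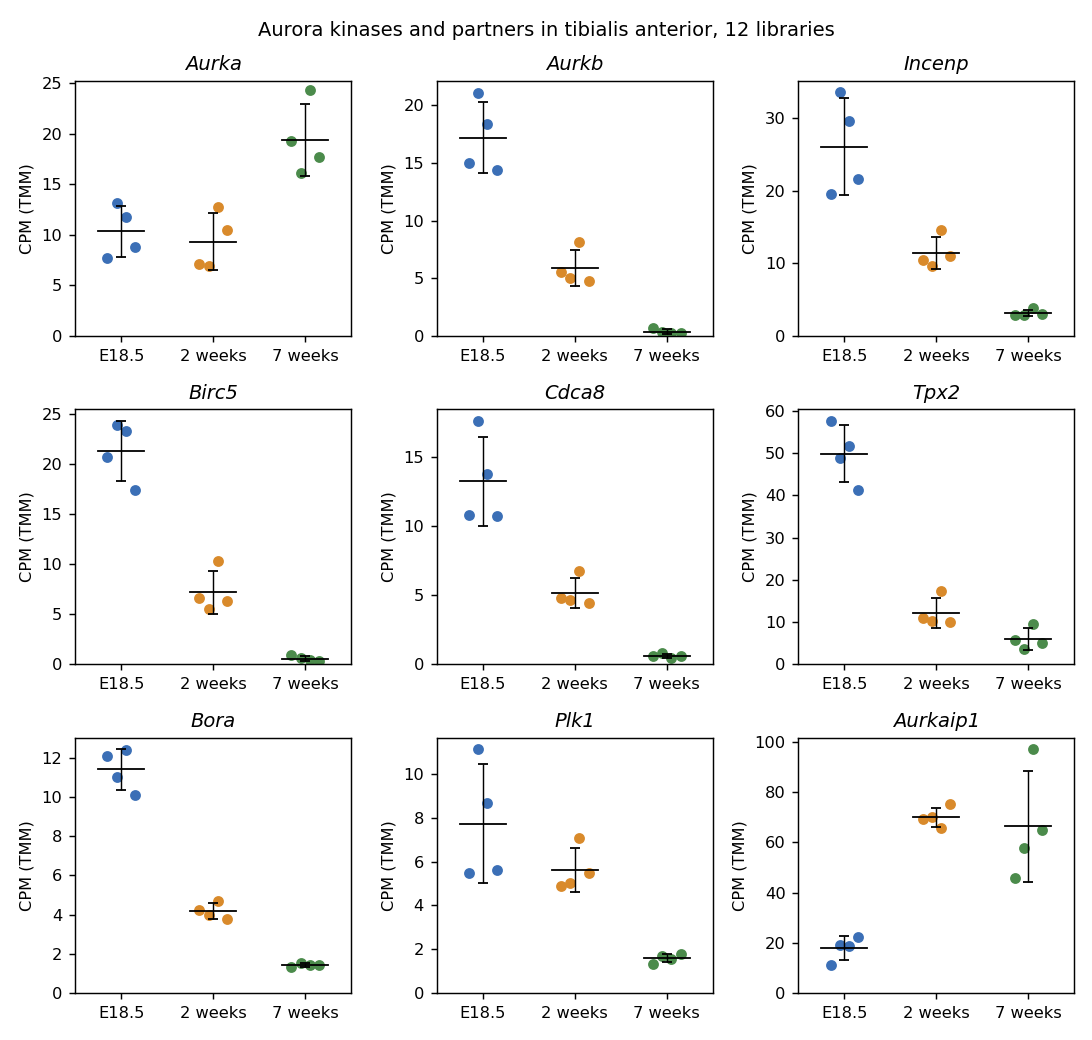
Each panel plots the level of a gene (vertical axis, CPM with TMM scaling, from 0) at E18.5, 2 wks and 7 wks (horizontal axis). Points are single mice, 4 at each age, horizontal lines are means and error bars are SD. With this scaling *Aurka* is highest at 7 wks (with total counts E18.5 has the highest mean), *Aurkaip1* is lowest at E18.5, and the other 7 genes are lowest at 7 wks.

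RefSeq promoter windows on GRCm38.p6, each reaching from 250 bases before to 50 bases after the annotated start, were at hand for 4 of the 9 genes, *Aurka*, *Plk1*, *Birc5* and *Cdca8*. They are shown because *Aurka* and the genes that went the other way can be read side by side. Mitotic genes are known for a CHR element, with the letters TTTGAA or TTTAAA near the start, often close to CCAAT boxes. These letters were searched on both strands. On the other strand TTTGAA becomes TTCAAA, and a TTTAAA box is its own reverse complement. The box CCAAT, known to be bound by the factor NF-Y, becomes ATTGG when it lies in the opposite sense. In the 100 bases before the start, printed on the strand of the gene with CCAAT boxes of either strand and any TTTAAA in capitals, *Aurka* lies at chr2:172370571-172370670 on the minus strand, *Plk1* at chr7:122159335-122159434 on the plus strand, *Birc5* at chr11:117849137-117849236 on the plus strand and *Cdca8* at chr4:124936918-124937017 on the minus strand.
Aurka: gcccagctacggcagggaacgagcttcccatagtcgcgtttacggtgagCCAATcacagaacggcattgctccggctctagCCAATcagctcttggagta
Plk1: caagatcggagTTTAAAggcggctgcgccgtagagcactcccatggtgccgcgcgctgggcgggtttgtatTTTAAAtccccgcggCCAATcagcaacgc
Birc5: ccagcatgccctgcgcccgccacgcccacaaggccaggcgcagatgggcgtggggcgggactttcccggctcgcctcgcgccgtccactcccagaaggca
Cdca8: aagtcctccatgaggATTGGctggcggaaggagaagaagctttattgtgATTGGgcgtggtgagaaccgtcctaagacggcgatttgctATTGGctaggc

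Just after the start, the windows of *Aurka* and *Plk1* hold TTTGAA on the strand of the gene, beginning at base 33 in *Aurka* and base 31 in *Plk1*, counted from 1 at the first base of the transcript. The 30 bases around each are shown with TTTGAA in capitals, at chr2:172370521-172370550 for *Aurka* and chr7:122159453-122159482 for *Plk1*.
Aurka: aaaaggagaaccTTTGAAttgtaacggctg
Plk1: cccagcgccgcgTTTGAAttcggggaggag

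*Aurka* thus shares these letters with *Plk1*, whose level went the other way after 2 wks. It also holds CCAAT at 51 and 19 bases before the start, and a TTTAAA from base 18 after it. In the *Birc5* window only a TTTAAA, 220 bases before the start and outside the stretch shown, was matched. Of all 32851 windows, 17.9% hold TTTGAA, 13.2% hold TTTAAA and 37.4% hold CCAAT, on either strand. Of 34 genes with a window among the 38 mitotic genes listed further below, 21 hold TTTGAA, 7 hold TTTAAA and 23 hold CCAAT. These were counted by gene, with a match in any window of the gene, so they are not strictly comparable with the shares of single windows. A match describes letters in a window and not a bound site.

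*Aurka* (ENSMUSG00000027496) lies on chromosome 2 of GRCm39, from 172198109 to 172212849 on the minus strand. At E18.5 it stood at 7.71, 13.1, 11.8 and 8.77 CPM in the 4 mice, a mean of 10.3 ± 2.52 (SD, n = 4). At 2 wks the values were 7.11, 6.95, 12.7 and 10.5 CPM (9.31 ± 2.79, n = 4), and at 7 wks 19.3, 16.1, 24.3 and 17.6 CPM (19.3 ± 3.56, n = 4). The mice of E18.5 and 2 wks overlapped, whereas the lowest mouse at 7 wks was above the highest at either earlier age. Over the interval to 2 wks its log2 fold change was -0.15 ± 0.23 (SE), which did not pass the threshold of 0.05 (edgeR, Benjamini-Hochberg adjusted p = 0.579). From 2 to 7 wks, the contrast used for the choice, it was 1.05 ± 0.23. From E18.5 to 7 wks, a comparison with the same 7 wks libraries, *Aurka* rose by 0.90 ± 0.23 on the log2 scale (edgeR, Benjamini-Hochberg adjusted p = 0.00312), and this rise turned into a value of -0.39 when libraries were scaled to their total counts (adjusted p = 0.118).

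The library sizes were adjusted in opposite senses before and after birth. TMM factors were 1.62 to 1.77 at E18.5, 0.810 to 0.946 at 2 wks and then 0.667 to 0.699 at 7 wks. With TMM the typical tested gene had a log2 fold change (median) of -0.09 for the early interval, -0.03 for the later interval and -0.09 for both together, which is 0.93, 0.35 and 1.28 above the values with total counts. Changes are therefore changes relative to the typical gene. As plain shares of the total count, *Aurka* stood at 17.3 ± 4.62 CPM at E18.5, 8.03 ± 1.87 at 2 wks and then 13.3 ± 2.19 at 7 wks (SD, n = 4 each). On that scale it fell by 1.11 on the log2 scale to 2 wks (edgeR, adjusted p = 0.000404) and was 0.72 higher at 7 wks than at 2 wks. The higher level at 7 wks than at 2 wks was thus seen with both scalings, and the direction from E18.5 to 7 wks was not.

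**Figure D2:**
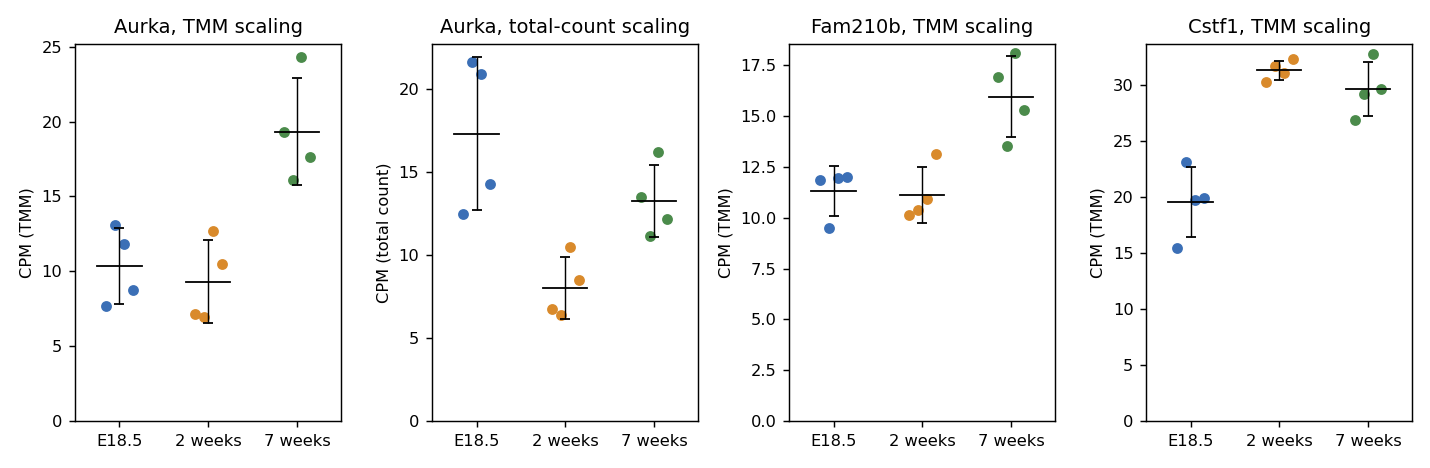
The panels plot *Aurka* with TMM scaling, *Aurka* with total-count scaling, and its overlapping neighbours *Fam210b* and *Cstf1* with TMM scaling (vertical axes, CPM from 0) at the 3 ages. Points are single mice, lines are means and error bars are SD (n = 4). The order of E18.5 and 7 wks for *Aurka* changes with the scaling, while 7 wks stays above 2 wks in both.

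Annotated genes on the opposite strand overlap *Aurka*. The 3′ end of *Fam210b* covers 984 of its 3907 exonic bases (25.2%), the start of *Cstf1* covers 293 (7.50%) and the non-coding *Gm75386* covers 233 (5.96%). The library kit keeps strand, but whether the counting used it is not given in the sources used here. *Fam210b*, which encodes a mitochondrial protein, stood at 9.48 to 12.02 CPM at E18.5, 10.1 to 13.1 at 2 wks and then 13.5 to 18.1 at 7 wks, with log2 differences of -0.02 to 2 wks and 0.52 from 2 to 7 wks. *Cstf1*, which encodes a subunit of the cleavage stimulation factor, held 15.4 to 23.1 CPM before birth, and its range was 30.3 to 32.3 in the mice of 2 wks and 26.9 to 32.8 in those of 7 wks. *Fam210b* was thus also highest at 7 wks, by less than *Aurka*, while *Cstf1* was not. Smaller overlaps with the opposite strand touch *Cdca8* (*Airim*, 232 bases, 4.47% of its exons) and *Plk1* (*Gm44985*, 160 bases, 5.60%), and those of *Bora* and *Incenp* are given with these genes. The part of shared reads in the levels was not tested.

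*Aurkb* (ENSMUSG00000020897, chromosome 11 of GRCm39, 68936467 to 68944764, plus strand) was lower at each later age, and went the other way from *Aurka* after 2 wks. It stood at 15.0, 21.1, 18.3 and 14.4 CPM at E18.5 (17.2 ± 3.11, n = 4), at 5.55, 5.04, 8.16 and 4.74 at 2 wks (5.87 ± 1.56, n = 4) and at 0.682, 0.342, 0.291 and 0.231 at 7 wks (0.386 ± 0.202, n = 4). No mouse of any age overlapped with one of another age. *Aurkb* fell by 1.55 ± 0.27 (SE) on the log2 scale from E18.5 to 2 wks (edgeR, Benjamini-Hochberg adjusted p = 0.000195) and by 5.50 ± 0.33 to 7 wks (adjusted p = 1.39e-08), so that 2.22% of its E18.5 level was left. From 2 to 7 wks, the interval that led to the choice, the log2 difference was -3.95, which is most of the change to 7 wks. The germ-cell member of the family, *Aurkc*, was at most 0.0919 CPM in any library.

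Per length of exon, *Aurka* was the lesser Aurora kinase transcript before birth and nearly the only one at 7 wks. In counts scaled by library size and by exon length (FPKM), *Aurka* made up 31.9 to 37.0% of the sum of *Aurka* and *Aurkb* at E18.5 (35.2% ± 2.26, n = 4), 53.9 to 66.9% at 2 wks (58.8% ± 5.74) and then 96.3 to 98.7% at 7 wks (97.8% ± 1.12). This share is taken within each library and so does not move with the scaling between libraries.

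The same was done with the other mitotic genes, *Aurkb*, *Tpx2*, *Bora*, *Plk1*, *Incenp*, *Birc5* and *Cdca8*. The log2 level of *Aurka* minus the mean of these 7 was -0.79 ± 0.17 at E18.5 (range -1.04 to -0.68), 0.42 ± 0.28 at 2 wks (0.16 to 0.79) and then 3.90 ± 0.27 at 7 wks (3.65 to 4.25), with SD and n = 4 at each age. The ratio was higher in all 4 mice of 2 wks than in any mouse of E18.5, a difference of 1.20 (exact permutation test, two-sided, p = 0.0286). This is the smallest p that 70 regroupings of 4 against 4 mice can give. The ratio at 7 wks was 3.49 above that at 2 wks and 4.69 above that at E18.5, and both are descriptions, since the contrast that led to the choice of the genes makes up most of them. Relative to the mean of its 7 partners, *Aurka* was thus already higher at 2 wks than at E18.5. With TMM its own level had not passed the test, and those of 6 of the 7 partners had fallen. The remaining partner, *Plk1*, had not passed either (-0.46 ± 0.24, beside -0.15 ± 0.23 for *Aurka*). With total counts *Aurka* itself fell to 2 wks, so what holds with both scalings is the ratio and not an unchanged level.

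**Figure D3:**
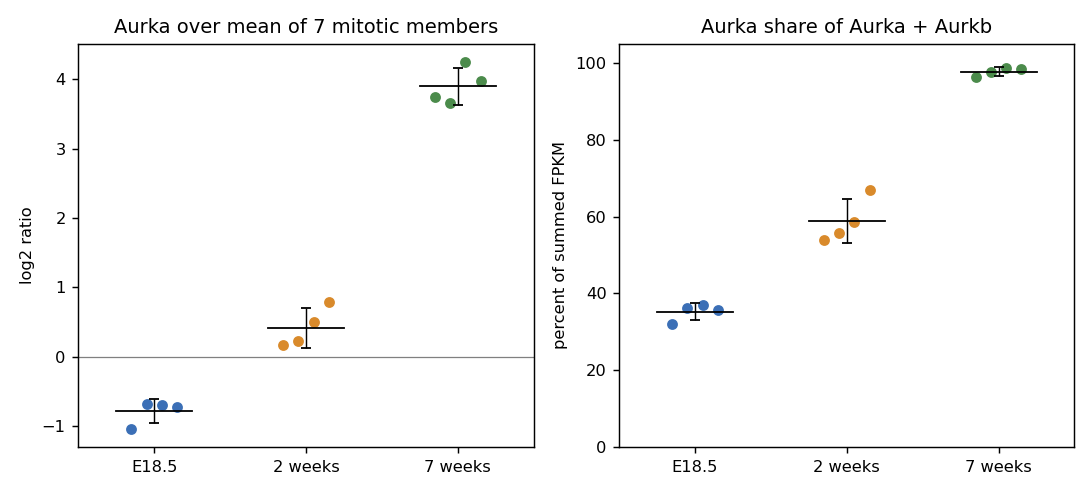
Left, log2 ratio of *Aurka* to the mean of 7 other mitotic genes, and right, *Aurka* as a percentage of the summed FPKM of *Aurka* and *Aurkb*, in each library at E18.5, 2 wks and 7 wks. Points are mice, lines are means and error bars are SD (n = 4), and no mouse overlaps with those of another age in either panel.

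The 5 genes outside the set whose log2 CPM ran most nearly parallel to *Aurka* over the 12 libraries, among 13083 genes, were *Mmab* (Pearson r = 0.966), *Wfikkn2* (0.963), *Hsp90ab1* (0.946), *Cdkn2aipnl* (0.942) and *Pip4k2b* (0.939). None of these 5 is among the mitotic genes listed further below. *Mmab* encodes an enzyme of cobalamin metabolism, *Wfikkn2* a secreted inhibitor of myostatin, *Hsp90ab1* a cytosolic chaperone and *Pip4k2b* a lipid kinase. *Wfikkn2*, for example, stood at 4.27 to 8.38 CPM at E18.5, 4.33 to 7.94 at 2 wks and then 15.1 to 18.3 at 7 wks. The 5 nearest to *Aurkb* were *Ccnb2* (0.997), *Cdca5* (0.997), *Cdk1* (0.996), *Foxm1* (0.996) and *Nek2* (0.995), all genes of cell division. These correlations rest on 3 clusters of libraries, the ages, and are a description of likeness without a test.

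The activators of Aurora A and its target Plk1 had lower mean levels at each later age. *Tpx2* (ENSMUSG00000027469, chromosome 2, 152689854 to 152737245, plus strand) stood at 57.6, 48.8, 51.6 and 41.2 CPM at E18.5, at 10.95, 10.3, 17.3 and 10.02 at 2 wks and at 5.74, 3.63, 9.54 and 5.13 at 7 wks. No ages overlapped, and the mouse with 17.3 CPM at 2 wks lay well above the other 3. *Tpx2* fell by 2.04 ± 0.27 on the log2 scale to 2 wks (edgeR, Benjamini-Hochberg adjusted p = 2.03e-05), the steepest early fall of the set, and by 3.05 ± 0.28 to 7 wks (adjusted p = 4.48e-07). Its later difference, -1.01 from 2 to 7 wks, was the smallest fall among the 7 mitotic partners. Between the kinase and its activator, *Aurka* had 0.134 to 0.268 counts for each count of *Tpx2* at E18.5, 0.649 to 1.05 at 2 wks and then 2.55 to 4.43 at 7 wks.

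*Bora* (ENSMUSG00000022070, chromosome 14, 99283627 to 99311976, plus strand) varied little among mice of an age. Its levels were 12.1, 11.03, 12.4 and 10.1 CPM at E18.5 (11.4 ± 1.05, n = 4), 4.23, 3.98, 4.71 and 3.76 at 2 wks (4.17 ± 0.407) and 1.30, 1.54, 1.44 and 1.42 at 7 wks (1.43 ± 0.0959). It fell by 1.45 ± 0.15 on the log2 scale to 2 wks (edgeR, Benjamini-Hochberg adjusted p = 3.02e-06) and by 3.00 ± 0.16 to 7 wks (adjusted p = 5.95e-09). The difference from 2 to 7 wks, -1.55, was about as large as the early one. *Dis3* on the opposite strand covers 1042 bases (19.4%) of its exons and *Mzt1* covers 114 (2.12%), and *Mzt1*, which encodes a centrosomal protein, went the other way, from 28.4 to 37.6 CPM at 2 wks to 54.8 to 73.9 at 7 wks.

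*Plk1* (ENSMUSG00000030867, chromosome 7, 121758646 to 121769108, plus strand), the kinase that Aurora A switches on, varied more among the mice of E18.5. It stood at 5.46, 11.2, 8.68 and 5.63 CPM at E18.5 (7.73 ± 2.72, n = 4), at 4.90, 5.02, 7.09 and 5.50 at 2 wks (5.63 ± 1.01) and at 1.34, 1.71, 1.55 and 1.76 at 7 wks (1.59 ± 0.189). The mice of E18.5 and 2 wks overlapped and those of 7 wks lay below both. The log2 fold change to 2 wks, -0.46 ± 0.24, did not pass the test (edgeR, Benjamini-Hochberg adjusted p = 0.101), and *Plk1* fell by 2.28 ± 0.25 to 7 wks (adjusted p = 2.33e-06). The early value depended on the fit, since it passed the test without E18.5 replicate 1 (-0.59, adjusted p = 0.0368), without E18.5 replicate 4 (-0.58, adjusted p = 0.0492), with upper-quartile scaling (-0.60), with a minimum of 10 counts (-0.58), with the GC trend of each library removed (-1.08) and with total counts (-1.41). At 7 wks 20.6% of the E18.5 level remained, the largest remainder among the 7 partners.

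In the passenger complex, the scaffold fell less than the other subunits. *Incenp* (ENSMUSG00000024660, chromosome 19, 9846569 to 9876924, minus strand) stood at 19.6, 33.5, 29.6 and 21.5 CPM at E18.5, at 10.4, 9.69, 14.6 and 11.01 at 2 wks and at 2.93, 2.87, 3.85 and 2.97 at 7 wks. The ages did not overlap. It fell by 1.19 ± 0.20 on the log2 scale to 2 wks (edgeR, Benjamini-Hochberg adjusted p = 0.000144) and by 3.05 ± 0.21 to 7 wks (adjusted p = 4.49e-08), with -1.85 between 2 and 7 wks.

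*Birc5* (ENSMUSG00000017716, chromosome 11, 117740040 to 117746581, plus strand) stood at 20.7, 23.9, 23.3 and 17.4 CPM at E18.5, at 6.61, 5.58, 10.4 and 6.32 at 2 wks and at 0.903, 0.637, 0.444 and 0.363 at 7 wks. It fell by 1.56 ± 0.25 to 2 wks (edgeR, Benjamini-Hochberg adjusted p = 0.000113), and it fell by 5.19 ± 0.30 to 7 wks (adjusted p = 1.09e-08). *Cdca8* (ENSMUSG00000028873, chromosome 4, 124812257 to 124833104, minus strand) stood at 10.8, 17.5, 13.7 and 10.7 CPM at E18.5, at 4.78, 4.66, 6.78 and 4.46 at 2 wks and at 0.642, 0.823, 0.444 and 0.577 at 7 wks. The ages did not overlap for either gene, and from 2 to 7 wks the log2 differences were -3.63 and -3.05. *Cdca8* fell by 1.35 ± 0.22 to 2 wks (edgeR, Benjamini-Hochberg adjusted p = 0.00014), and it fell by 4.41 ± 0.26 to 7 wks (adjusted p = 1.2e-08).

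At 7 wks the catalytic subunit and the subunits survivin and borealin thus kept 2.22%, 2.73% and 4.71% of their E18.5 levels, and *Incenp* kept 12.1%. In FPKM, *Incenp* stood at 0.708 to 0.906 times the mean of the other 3 subunits at E18.5, 0.973 to 1.21 times at 2 wks and 2.24 to 5.70 times at 7 wks. This ratio was chosen after the values were seen and is a description. The non-coding *Gm50340* on the opposite strand covers 418 bases (5.47%) of the exons of *Incenp* and held 0.983 to 1.70 CPM at 7 wks, against 0.197 to 0.693 at E18.5.

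*Aurkaip1* (ENSMUSG00000065990, chromosome 4, 155915680 to 155917587, plus strand) is named for its protein's interaction with Aurora A, and the protein is also a subunit of the mitochondrial ribosome. It stood at 11.04, 19.2, 18.8 and 22.3 CPM at E18.5 (17.8 ± 4.80, n = 4), at 69.3, 70.005, 65.8 and 75.2 at 2 wks (70.1 ± 3.85) and at 45.6, 57.7, 97.4 and 65.0 at 7 wks (66.4 ± 22.1). All mice after birth lay above those of E18.5, and the mice of 2 and 7 wks overlapped. *Aurkaip1* rose by 1.97 ± 0.24 on the log2 scale to 2 wks (edgeR, Benjamini-Hochberg adjusted p = 1.06e-05) and by 1.90 ± 0.24 to 7 wks (adjusted p = 8.4e-06). With total counts it still rose, by 1.04 and 0.61 (edgeR, adjusted p = 0.000963 and 0.0253). The difference from 2 to 7 wks, -0.08, was within its SE of 0.23.

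**Figure D4:**
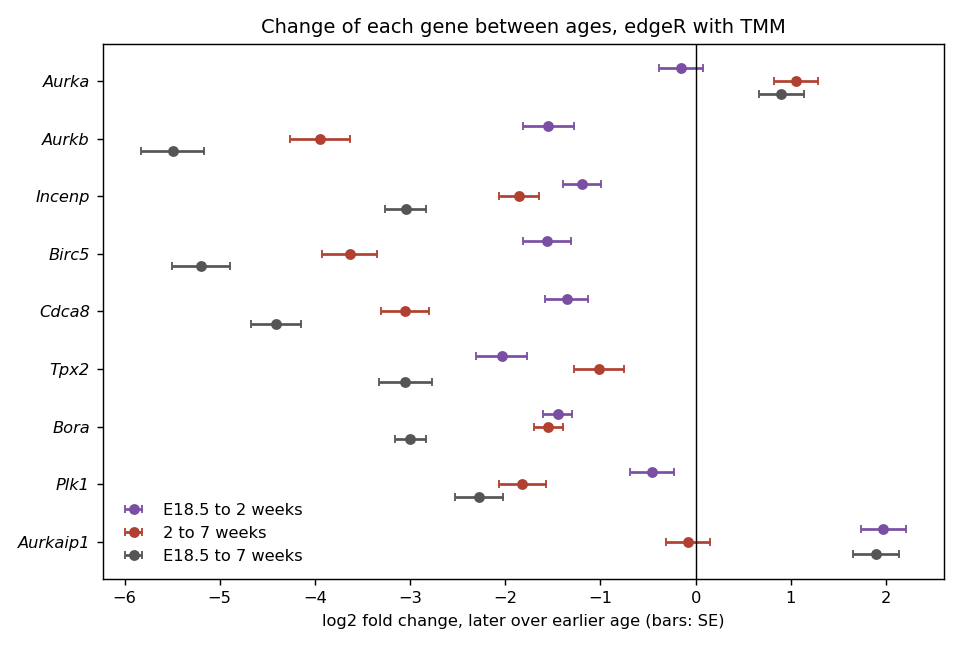
Log2 fold change (horizontal axis, later over earlier age) of each of the 9 genes, from the edgeR fit with TMM scaling, for the 3 pairs of ages. Points are estimates and bars are SE. *Aurkaip1* lies right of 0 for both changes from E18.5, *Aurka* for the changes to 7 wks (that from E18.5 changes sign with total counts), and the other 7 genes lie left of 0 throughout.

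Of the 9 genes, 7 passed the test from E18.5 to 2 wks, 6 lower and 1 higher, with a median log2 fold change of -1.35. The background was high, since 65.7% of all 19276 tested genes were called, 34.2% lower and 31.5% higher. From E18.5 to 7 wks all 9 passed, 7 lower and 2 higher, with a median of -3.05. Of all genes 71.4% were called, 37.1% lower and 34.3% higher. That span contains the interval that led to the choice, so no support is drawn from the count of members. From 2 to 7 wks 8 values were below 0 and that of *Aurka* was above, with a median of -1.82, beside 27.5% of all genes called, 13.9% lower and 13.5% higher, and nothing is read from this last comparison. With total counts the split of all calls moved far to the lower side, to 2550 higher and 11923 lower by 2 wks, 948 and 5392 from 2 to 7 wks, and 2291 and 13297 from E18.5 to 7 wks. Upper-quartile scaling gave 1902 higher and 3286 lower from 2 to 7 wks, and 5413 and 7463 by 2 wks.

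Ordered per length of exon, the set changed rank with age. The length is that of all annotated exons of a gene merged, so the order of genes within an age depends on the annotation. At E18.5 *Tpx2* (10.6 ± 1.44 FPKM) and *Aurkaip1* (9.70 ± 2.61) led, and *Aurkb* (4.82 ± 0.871), *Birc5* (4.69 ± 0.649) and *Incenp* (3.41 ± 0.866) followed. *Plk1* (2.71 ± 0.953), *Aurka* (2.65 ± 0.646) and *Cdca8* (2.55 ± 0.619) came next and lay within each other's SD, and *Bora* (2.12 ± 0.196) was lowest. At 7 wks *Aurkaip1* (36.1 ± 12.02) and *Aurka* (4.95 ± 0.910) stood above *Tpx2* (1.28 ± 0.534), *Plk1* (0.557 ± 0.0661), *Incenp* (0.413 ± 0.0605) and *Bora* (0.266 ± 0.0179). *Birc5* (0.129 ± 0.0528), *Cdca8* (0.120 ± 0.0304) and *Aurkb* (0.108 ± 0.0567) were lowest and did not differ beyond their spread. Each value is a mean ± SD of 4 mice.

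Mice of an age also differed together. At 2 wks, 8 of the 9 genes were highest in replicate 3, the exception being *Aurkaip1*, and at E18.5, 6 of the 9 were highest in replicate 2. In E18.5 replicate 1 the deviations from the mean of the 4 mice on the log2 scale were -0.64 for *Aurkaip1*, -0.43 for *Plk1*, -0.39 for *Aurka*, -0.38 for *Incenp*, -0.26 for *Cdca8*, -0.18 for *Aurkb* and -0.03 for *Birc5*, and 0.22 for *Tpx2* and 0.09 for *Bora*. The GC content of the exons is 57.1% for *Aurkaip1* and 55.8% for *Plk1*, 50.0 to 53.0% for the next 5 and 47.2% and 47.1% for *Tpx2* and *Bora*. In replicate 4, *Aurkaip1* was at 0.37 and *Plk1* at -0.39. With the trend of each library over GC content removed, the log2 fold change of *Plk1* to 2 wks was -1.08 (edgeR, adjusted p = 0.000163) and that of *Aurkaip1* 1.15 (adjusted p = 2.18e-05), while *Aurka* hardly moved, at -0.21 to 2 wks (adjusted p = 0.391) and 0.83 to 7 wks (adjusted p = 0.00311).

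The wider pathway was described by gene lists. All 20 genes of mitotic entry and spindle fell from E18.5 to 2 wks, with a median log2 fold change of -2.14. All 20 also fell to 7 wks (median -5.70), with edgeR and the same threshold for both. Of all tested genes 34.2% and 37.1% were called lower. The span to 7 wks contains the interval in which other cell cycle genes had been seen lower, so no support is drawn from it. Examples to 2 wks are *Ccnb1*, the mitotic cyclin (-2.80 ± 0.35), *Nusap1*, a spindle protein (-2.62 ± 0.30), and *Top2a*, the topoisomerase of chromosome condensation (-2.57 ± 0.44). *Top2a*, the most abundant of these, had means of 173, 29.1 and 2.26 CPM at the 3 ages in order. From 2 to 7 wks, given as a description, the median was -3.70 and all 20 values were below 0.

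Of 18 scaffolds and substrates of the Aurora kinases, 16 fell and 1 rose to 2 wks (median -1.71). To 7 wks 17 fell (median -4.52), beside the same shares of all genes called lower. No support is drawn from the count to 7 wks, for the reason given for the list before. *Bub1*, the checkpoint kinase that marks centromeres for the passenger complex, fell by 2.68 ± 0.30, *Hmmr*, which helps to place TPX2 on the spindle, by 2.58 ± 0.44, and *Sgo1*, the guardian of centromeric cohesion, by 2.46 ± 0.39. The exception was *Rcc2*, which rose by 1.04 ± 0.28 to 2 wks with TMM. With total counts, where most calls over all genes were lower, 17 of the 18 were called lower at 2 wks. *Rcc2* was then no longer called higher.

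The anaphase-promoting complex degrades Aurora A at mitotic exit. Of 19 listed genes of the complex and of mitotic exit, 8 fell and 4 rose to 2 wks (median -0.04), and 8 fell and 6 rose to 7 wks (median 0.10), beside 65.7% and 71.4% of all tested genes called, so nothing particular to the list is read from these counts. *Fbxo5*, an inhibitor of the complex (-1.82 ± 0.23), *Cdc20*, its mitotic co-activator (-1.25 ± 0.26), and *Cdc27*, a core subunit (-1.16 ± 0.21), fell. The core subunits *Anapc13* (1.91 ± 0.26) and *Anapc11* (1.09 ± 0.22) and *Fzr1*, the co-activator that directs Aurora A degradation (1.01 ± 0.32), rose with TMM. With total counts, where most calls over all genes were lower, 1 gene of the list was higher and 14 were lower at 2 wks. From 2 to 7 wks, as a description, *Cdc20* went from 7.31 to 0.662 CPM and *Fzr1* from 19.7 to 18.4.

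A further list held activators and other partners of Aurora A, mostly outside mitosis. Of its 8 tested genes, 4 rose and 1 fell to 2 wks, and 2 rose and 2 fell to 7 wks. Beside them stand the same 65.7% and 71.4% of all tested genes called, so nothing particular to the list is read from these counts. *Calm3* (1.54 ± 0.22), which encodes calmodulin, and *Pak1* (1.04 ± 0.28), a kinase, were among the higher ones, and *Ajuba* (-0.47 ± 0.19), a LIM protein, was lower. The call count to 2 wks was 3 without 2 wks replicate 3 and also without 2 wks replicate 4. With total counts, where most calls over all genes were lower, 1 was higher and 4 were lower at 2 wks.

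The mitochondrial small ribosomal subunit, to which the product of *Aurkaip1* belongs, was compared through 29 other genes. Of these, 25 rose to 2 wks with TMM (median 1.03), and 26 rose to 7 wks (median 1.26), beside 31.5% and 34.3% of all tested genes called higher, with *Mrps28* (3.01 ± 0.26), *Mrps12* (2.77 ± 0.34) and *Mrps34* (2.33 ± 0.31) foremost. From 2 to 7 wks the median was 0.12. With total counts the calls over all genes moved far to the lower side, as given above. On that scale 9 genes of the list rose and 6 fell by 2 wks, while 6 rose and 9 fell by 7 wks. This balance was less far to the lower side than that of all genes. The balance of rises and falls in the list thus depends on the scaling, whereas the direction of *Aurkaip1* from E18.5 does not.

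**Figure D5:**
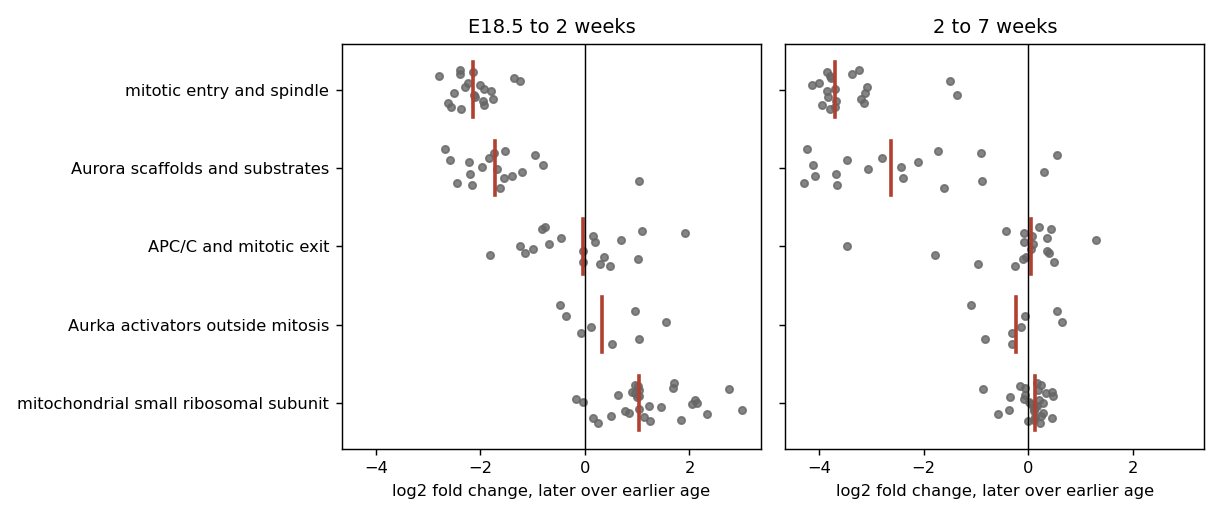
Log2 fold change (horizontal axis, later over earlier age, TMM scaling) of every tested gene in 5 lists, from E18.5 to 2 wks on the left and from 2 to 7 wks on the right. Grey points are genes and red bars are list medians. The medians of the 2 mitotic lists lie below 0 in both panels, at -2.14 and -1.71 on the left and -3.70 and -2.62 on the right. Among the scaffolds and substrates, 1 gene lies above 0 in the left panel and 2 in the right panel. The list labelled as activators outside mitosis also holds other partners of Aurora A.

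The cell make-up of the samples changed over the same ages. In bulk muscle, fewer cells of a type and less RNA per cell cannot be told apart. Summed levels of 7 muscle fibre markers, such as *Acta1* and *Ckm*, were 13116 to 22750 CPM at E18.5, 114254 to 139941 at 2 wks and then 120928 to 154920 at 7 wks, in keeping with the labelled tissue, and all 7 rose to 2 wks. The 7 satellite cell and myoblast markers summed to 159 to 313 CPM at E18.5, 76.2 to 159 at 2 wks and then 27.4 to 42.2 at 7 wks, and 5 of them fell to 2 wks. The 6 fibroblast markers went from 6383 to 11086 CPM at E18.5 to 3335 to 4953 and then 803 to 2853, with 4 lower at 2 wks. These counts, with TMM, stand beside 34.2% of all tested genes called lower and 31.5% called higher at 2 wks. *Myod1* (0.52) and *Col1a1* (0.09) had log2 fold changes above 0 to 2 wks, and *Dcn* (0.14) from 2 to 7 wks, the members of both lists with such values in those intervals.

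Markers of blood and other tissues were also followed, with TMM. Their counts of calls, here and in the next paragraph, stand beside the same 34.2% lower and 31.5% higher at 2 wks. Macrophage markers summed to 152 to 185 CPM at E18.5, 65.2 to 89.5 at 2 wks and then 17.6 to 60.2 at 7 wks (2 of 5 lower and 1 higher at 2 wks), and 6 erythroid markers to 129 to 491, 49.7 to 270 and 30.1 to 44.0 (2 of 6 lower). The erythroid genes *Hba-a1* (1.20) and *Hba-a2* (0.21) had log2 fold changes above 0 to 2 wks, and neither passed the threshold. Granulocyte precursor markers were at most 2.02 CPM in sum, with *Elane* at 0 in all mice of 7 wks, and lymphocyte markers at most 1.29. Endothelial markers were higher after birth (307 to 461, 785 to 950 and 489 to 758 CPM, 4 of 5 higher at 2 wks). Schwann cell markers ranged from 100 to 628 CPM over all mice (1 of 5 lower and 2 higher at 2 wks).

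Cartilage markers fell from 13.6 to 125 CPM at E18.5 to at most 13.2 later (3 of 4 tested lower at 2 wks, *Matn1* at 0 after birth). Summed epidermal markers spanned 6.25 to 32.5 CPM before birth. This span held every later mouse, since the lowest later sum was 9.87 CPM and the highest was 18.0. Of 4 tested epidermal genes, 2 were lower at 2 wks, *Krt5* and *Krt14*, with *Dsg3* at 0 at that age. From 2 to 7 wks the log2 fold changes of *Krt5* and *Krt14* were above 0 (6.31 and 3.83). *Trp63* had a value of 0.20 to 2 wks, which did not pass the threshold. Male germ cell markers were at most 3.77 CPM in sum at E18.5 and 0.196 later (2 of 2 tested lower), with *Tnp1* and *Prm1* at 0 in every library. The part of these cell types in the levels of the 9 genes was not tested.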

How the data were processed

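The authors isolated RNA from tibialis anterior with TRI Reagent, made libraries with the TruSeq Stranded mRNA kit, trimmed reads with cutadapt 1.10 and mapped them with STAR. The submitters' processing notes name STAR 2.5.3a, HTSeq 0.6.1p1 and mm10, whereas the methods of the study name GRCm39, so the build behind the counts is uncertain. Deposited were whole raw counts of reads, a row for each Ensembl identifier, and the strand setting and annotation of the counting are not given in the sources used here. The counts carry no coordinates, so positions, exon lengths and overlaps were taken from GENCODE M39 on GRCm39 by gene identifier. Promoter sequences came from RefSeq on GRCm38.p6, and 1 gene of the lists and 1 stretch of promoter sequence are not reported here.

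Counts of all 12 libraries were normalized with TMM and fitted together by age by edgeR 4.0.16 with its quasi-likelihood test, under R 4.3.3 with limma 3.58.1. The filter filterByExpr kept 19276 genes and dropped 36174. Benjamini-Hochberg adjustment ran over all tested genes, and the threshold was 0.05. The log2 ratio used a prior count of 2. The GC content of exons was known for 98.7% of tested genes. The common dispersion was 0.0777. In counts simulated for E18.5 to 2 wks at that dispersion, 192 of 200 genes changed 4-fold were recovered with 14 false calls among 18857 genes, and 56 of 200 changed 2-fold with 7 among 18879. With no gene changed, 0 of 18860 were called. In the data 65.7% of tested genes were called over that interval, far more than were changed in the simulation. The simulated rates therefore do not carry over to the data.

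The genes, the lists of 18, 20, 19, 9 and 29 pathway genes and the 12 marker lists were chosen with earlier results of these data known. *Cimap3* did not pass the filter, and *Ahsp* was not analysed here. Named from each list are the 3 largest rises and falls to 2 wks among genes past the threshold, beside the 5 genes most like *Aurka* and *Aurkb* (no gene under a mean log2 CPM of 0), and overlapping genes. Within ages, counts of the 18 pairs of libraries had chi-square values of 31.2 to 524 for each degree of freedom, and no pair was treated as a copy. The mice are taken as separate animals, and p-values measure the spread between these samples. Figures were drawn with matplotlib 3.10.9 and Python 3.11.15, with pandas 2.3.3. Alternatives were total-count and upper-quartile scaling, DESeq2 1.42.0, the table unfiltered, a minimum of 10 counts per gene and library, a replicate block, only the ages compared, removal of the GC trend, other prior counts, a summed ratio, and each library left out in turn.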

Additional observations from a re-analysis of the deposited data

Results flagged for a closer look

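Of the 27 sets of 4 mice (9 genes at 3 ages), 3 held a mouse that stood far from the others by Dixon's test at the 95% level, where chance alone would give about 1.35. At 2 wks, replicate 3 was high for *Tpx2*, at 17.3 CPM, while the remaining mice spanned 10.02 to 10.95. The same mouse was high for *Cdca8*, at 6.78 CPM against 4.46 to 4.78. At 7 wks, replicate 3 was high for *Incenp*, at 3.85 CPM against 2.87 to 2.97. Without 2 wks replicate 3, the log2 fold changes from E18.5 to 2 wks of *Tpx2* and *Cdca8* were -2.25 and -1.50. Without 7 wks replicate 3, that of *Incenp* from 2 to 7 wks was -1.96, and none of these changed its direction.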

How the results depend on the processing

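Under scaling to the total count, *Aurka* was at -0.39 from E18.5 to 7 wks (reversed) and at -1.11 to 2 wks (now past the threshold), and *Plk1* was at -1.41 to 2 wks. That scaling called 15 mitochondrial ribosomal genes to 2 wks and 15 to 7 wks. It also called 7 genes of the list of other Aurora A activators and partners to 7 wks. *Plk1* to 2 wks also passed with upper-quartile scaling (-0.60), with at least 10 counts in every library (-0.58) and with the GC trend removed (-1.08), and ranged from -0.59 to -0.23 with a library left out. At least 10 counts in every library left fewer scaffolds and substrates to test, with 11 called to 2 wks and 10 to 7 wks. *Aurkaip1* from 2 to 7 wks changed sign with the GC trend removed (0.15) and without 7 wks replicate 1 (0.067), and ranged from -0.32 to 0.07 with a library left out. Leaving out a library gave 3472 (without 2 wks replicate 1) to 6145 genes called from 2 to 7 wks. In the list of other Aurora A activators and partners it gave 3 to 5 genes called to 2 wks. The cause of these changes was not tested, apart from the smaller number of genes tested under the strict filter. With any library left out, 7 to 8 members were called to 2 wks and 9 to 7 wks. With all libraries, 65.7% and 71.4% of all tested genes were called. No support is drawn from the count to 7 wks, which contains the interval that led to the choice.

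Replicate numbers were not taken as a pairing of the mice, and whether they carry one was not tested. Deviations from the age means correlated at a mean r of 0.03 (-0.14 to 0.28) between libraries of the same number and -0.01 (-0.29 to 0.24) otherwise, and in 10 of 24 cases a library correlated best with its own number at another age. With the replicate block, 12470, 5149 and 13611 genes were called, and no call of a member changed. The difference in the ratio of *Aurka* to its partners from E18.5 to 2 wks, 1.20, had an exact permutation p of 0.125 with the replicate block, the smallest that 16 regroupings allow, so this p says nothing about stability. That to 7 wks, 4.69, is given without a test. The lowest count of any of the 9 genes, 14, was that of *Aurkb* in a mouse of 7 wks.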
